A study of Rattus norvegicus with 6 samples.

Results

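Cell cycle and mitosis genes were examined in the renal cortex of rats given potassium bromate. The list held 47 genes of cell cycle entry, DNA replication and mitosis, chosen by name. Of these 44 were among the 15645 gene symbols with a named probe on the array, and 43 were measured, out of 29338 genes tested in all. A gene was read from its probe with the highest mean level, if a probe was well above background on 3 or more arrays. The list was made of 9 drivers of the G1/S transition, 12 genes of DNA replication, 5 brakes on the cycle and 21 mitotic genes. Mcm5, Top2a and Bub1b had no named probe, and Aurkb was too dim to enter. The treated rats were 3 male Crl:CD(SD) Sprague-Dawley rats given potassium bromate, an oxidising compound toxic to the kidney, at 100 mg/kg/day for 4 weeks, and the controls were 3 such rats given water for 4 weeks. All were bought at 5 weeks of age and ate a basal diet. Every animal has its own single-colour array, which gives 3 biological replicates a group. In whole cortex, a change in the share of dividing cells and one in RNA per cell cannot be told apart.

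A cell that leaves rest first makes D-type cyclins, which work with CDK4 and CDK6 to inactivate the retinoblastoma protein and release E2F factors. E2F factors then switch on cyclin E, the MCM helicase and the enzymes that supply DNA building blocks, while INK4 and KIP proteins hold these kinases back. Mitotic genes follow later, once DNA has been copied, and many are repressed in resting cells through a promoter element called the CHR (cell cycle genes homology region). In the adult kidney most tubule cells rest, and cells of damaged tubules are known to re-enter the cycle during repair.

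E2F sites and the CHR can be looked for in promoter sequence, and 4 promoters are shown because their genes stand for the patterns described below. Promoter windows of 300 bases (250 before to 50 after the start) came from RefSeq on build GRCr8, 5′ to 3′ on the gene's strand, and 34 of the 47 members had one. Mcm3 (chr9:30733697-30733996, minus strand) and Cdt1 (chr19:67528999-67529298, plus strand) are replication genes that were higher on all 3 bromate arrays. Cdt1 was well above background on none of the water arrays and was measured only through the bromate arrays. Its being higher on them was thus built in and supports nothing. Capitals mark E2F-type letters, searched as TTTGGCGC, TTTGCCGC, TTTCGCGC and TTTCCCGC on both strands.
Mcm3: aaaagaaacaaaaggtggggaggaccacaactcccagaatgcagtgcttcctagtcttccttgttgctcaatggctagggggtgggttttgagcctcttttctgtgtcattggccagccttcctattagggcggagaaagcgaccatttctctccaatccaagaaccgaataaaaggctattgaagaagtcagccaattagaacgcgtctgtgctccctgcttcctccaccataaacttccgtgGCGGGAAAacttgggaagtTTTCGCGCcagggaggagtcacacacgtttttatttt
Cdt1: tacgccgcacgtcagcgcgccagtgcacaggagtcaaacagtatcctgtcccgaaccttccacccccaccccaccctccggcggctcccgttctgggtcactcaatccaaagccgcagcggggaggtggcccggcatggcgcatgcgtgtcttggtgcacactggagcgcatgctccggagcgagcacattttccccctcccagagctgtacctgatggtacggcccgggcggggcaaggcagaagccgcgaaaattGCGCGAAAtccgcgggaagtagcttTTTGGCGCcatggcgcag

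Cdk1 (chr20:19265043-19265342, plus strand) and Ccnb2 (chr8:79981609-79981908, minus strand) are mitotic genes that were higher on bromate replicates 2 and 3 and not on bromate replicate 1. Capitals here mark CHR-type letters, searched as TTTGAA and TTCGAA on both strands.
Cdk1: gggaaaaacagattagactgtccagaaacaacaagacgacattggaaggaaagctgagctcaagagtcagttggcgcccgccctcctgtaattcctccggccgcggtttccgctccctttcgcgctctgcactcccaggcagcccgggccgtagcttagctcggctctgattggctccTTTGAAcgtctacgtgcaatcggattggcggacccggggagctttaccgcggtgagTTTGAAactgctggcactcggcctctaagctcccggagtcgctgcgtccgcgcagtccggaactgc
Ccnb2: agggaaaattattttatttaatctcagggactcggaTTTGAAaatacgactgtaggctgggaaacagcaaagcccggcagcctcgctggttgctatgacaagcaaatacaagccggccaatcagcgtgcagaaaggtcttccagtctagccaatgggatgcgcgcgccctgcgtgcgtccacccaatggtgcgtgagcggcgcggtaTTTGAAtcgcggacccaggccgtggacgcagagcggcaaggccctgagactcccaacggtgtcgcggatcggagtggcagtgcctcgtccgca

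E2F-type letters stood in 8 of 9 replication windows (88.9%) and in 1 of 16 mitotic windows (6.25%), against 716 of all 33469 promoter windows (2.14%). CHR-type letters stood in 11 of the 16 mitotic windows (68.8%) and in 3 of the 9 replication windows (33.3%), against 19.7% of all windows. CCAAT, the letters bound by NF-Y, stood in 13 of the 16 mitotic windows (81.2%) and 6 of the 9 replication windows (66.7%), against 37.5% of all. The bar chart of these shares shows both classes with the drivers and brakes. The replication windows with E2F-type letters were those of Mcm2, Mcm3, Mcm5, Mcm6, Mcm7, Cdt1, Gins1 and Tyms. In the mitotic class only Cdk1 had them. Among the 4 driver windows (Ccnd3, Cdk4, Ccne1 and Cdk2) none had E2F-type letters and none had CHR-type letters. A match is a run of letters and not evidence of a bound factor, and no match speaks only of this window.

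**Figure D1:**
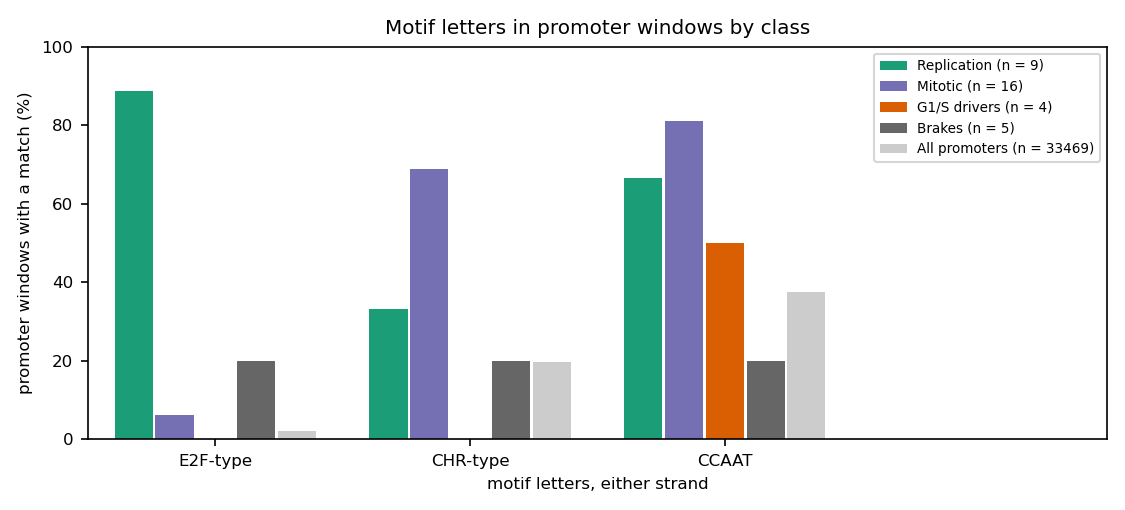
Share of promoter windows (%, vertical axis) that hold E2F-type, CHR-type or CCAAT letters on either strand, for 9 replication, 16 mitotic, 4 G1/S driver and 5 brake genes and for all 33469 windows. E2F-type letters stand in 88.9% of replication windows and CHR-type letters in 68.8% of mitotic windows, against 2.14% and 19.7% of all windows.

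Each array had 61537 probes besides its control spots, of which 35621 to 38180 on the bromate arrays and 36517 to 38801 on the water arrays were well above background. Bromate replicate 1 had the fewest. No probe was saturated, and precision is limited by there being 3 arrays a group. Of the 2 slides, 1 held water replicate 1 alone. All 8 proximal tubule markers checked, such as Lrp2, Cubn and Slc34a1, were well above background on all 6 arrays, so the labelled tissue had its main epithelium. A level below is the log2 processed signal minus that array's own 75th percentile of log2 signal, a difference is bromate minus water on the log2 scale with its standard error, and n = 3 per group throughout. Levels of different genes come from different probes and are not compared with each other.

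A set of G1/S and replication genes was higher after bromate, and 1 mitotic gene passed the test. Of the 43 measured members 11 rose and 0 fell at an adjusted p of 0.05 (limma, adjusted over all 29338 genes tested), against 6.59% of all genes that rose and 7.34% that fell (13.9% in either direction). At an unadjusted p under 0.05 there were 15 members, of which Ccnd3 was lower, which is close to the share of all genes (32.7%). The 11 were Ccne1, Cdk6 and E2f1 among the drivers, Mcm2, Mcm3, Mcm4, Mcm7, Cdt1 and Gins1 among the replication genes, Cdkn2b among the brakes and Tpx2 among the mitotic genes. Cdt1 and Cdkn2b passed the filter on dim probes only through the bromate arrays, so a difference in them was built into their being measured, and their calls and lack of overlap support nothing. The median difference over the 43 members was 0.49, against -0.02 over all genes.

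By class, 9 of the 20 measured driver and replication genes rose, with a median difference of 0.46, against 6.59% of all genes. These 2 classes were unlike. The median difference was 0.11 over the 9 drivers, 3 of which had a difference below 0, and 0.95 over the 11 replication genes. Of the 18 measured mitotic genes 1 rose, which is close to that share, and their median difference was 0.56. Without bromate replicate 1 the median of driver and replication genes together was 0.59 and that of mitotic genes 1.01. Whether the classes differ in calls was not tested. The groups did not overlap, with bromate higher, in 10 of the 20 driver and replication genes and in 2 of the 18 mitotic genes, against 19.5% of all genes. Both the 9 and the 10 include Cdt1, which supports nothing here. With bromate lower they did not overlap in 3 members, Ccnd3, Cdkn2c and Rb1, against 21.4% of all genes. The class means differed in which of the bromate arrays were high. The replication mean was -1.07, -0.44 and -0.59 on bromate replicates 1, 2 and 3, against -1.51, -1.45 and -1.51 on water replicates 1, 2 and 3. Every bromate array lay above every water array, and without Cdt1 the bromate values were still -0.79, -0.09 and -0.26, against -1.15, -1.04 and -1.14 on the water arrays. The mitotic mean was -1.44, -0.04 and -0.14 on bromate replicates 1, 2 and 3, against -0.87, -1.06 and -1.41 on water replicates 1, 2 and 3. Bromate replicates 2 and 3 were thus above all water arrays, and bromate replicate 1 was below all of them. The driver mean was -0.62, -0.21 and -0.31 on the bromate arrays, against -0.73, -0.79 and -0.90 on the water arrays, without overlap. By gene, bromate was higher without overlap in 3 of the 9 drivers, Ccne1, Cdk6 and E2f1, against 19.5% of all genes.

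**Figure D2:**
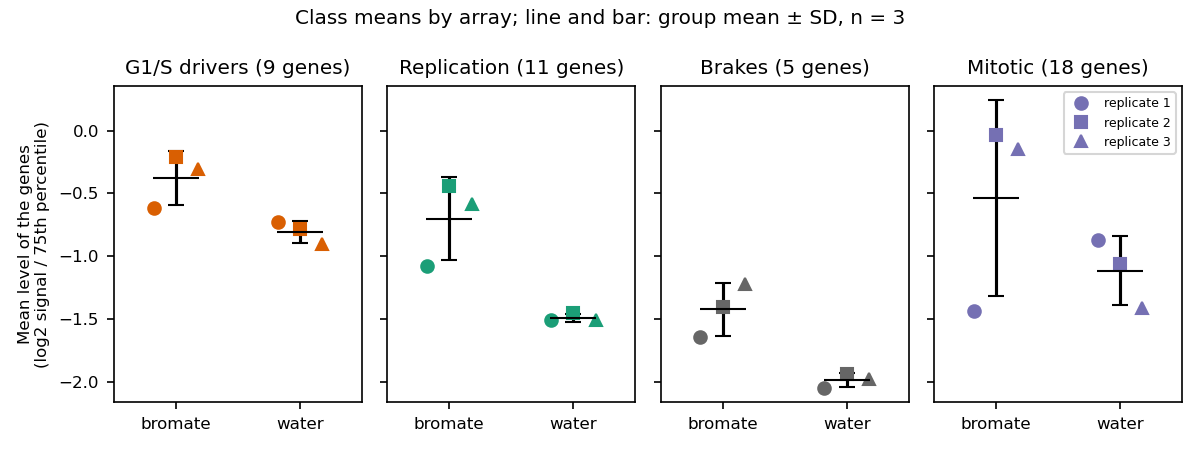
Mean log2 level of the measured genes of each class (vertical axis) on each array, with bromate left and water right; symbols mark replicates 1 to 3, and the line and bar give the group mean ± SD (n = 3). Replication genes lie higher on all 3 bromate arrays, whereas the mitotic mean of bromate replicate 1 (-1.44) lies below all 3 water arrays. The brake mean is carried by Cdkn2b.

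Set against each other on the same array, driver and replication genes minus mitotic genes came to 0.57, -0.30 and -0.32 on bromate replicates 1, 2 and 3, against -0.29, -0.09 and 0.17 on water replicates 1, 2 and 3. The group means were -0.02 ± 0.51 and -0.07 ± 0.23 (SD), so the average balance of both classes moved by 0.05, less than the spread within either group. The bromate group held both the highest balance, in replicate 1, and the lowest ones, in replicates 2 and 3. No test was made of this score, since it was formed from members chosen with results known.

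Among the drivers, cyclin E1 moved most. Ccne1, which encodes the partner of CDK2 at entry into S phase, had log2 levels of -1.89, -1.19 and -1.59 on bromate replicates 1 to 3, against -3.42, -3.48 and -3.62 on water replicates 1 to 3. The lowest bromate value was well above the highest water value. The log2 difference was 1.95 ± 0.19 (3.86-fold, adjusted p = 0.00456), and it passed with each array removed in turn (highest adjusted p 0.027). With normexp background correction the difference was 1.21. Its sister Ccne2, which encodes cyclin E2, had levels of -4.05, -3.59 and -3.44 on the bromate arrays, against -3.57, -4.28 and -4.47 on the water arrays. These groups overlapped, and the difference of 0.42 ± 0.28 did not pass (adjusted p = 0.349). E2f1, which encodes the factor that drives S-phase genes, had levels of -0.85, -0.21 and -0.57 on the bromate arrays, against -1.41, -1.24 and -1.56 on the water arrays. All bromate values were higher, and the difference of 0.86 ± 0.18 (1.81-fold) passed (adjusted p = 0.0353). A second E2f1 probe, well above background on all 6 arrays, gave 1.20 ± 0.27 and also passed. Another, dimmer one, well above background on 3 arrays, gave 0.92 ± 0.33 and did not. With single arrays removed, E2f1 passed in 1 case, without bromate replicate 1 (highest adjusted p 0.102), and it did not pass with the mean of its probes.

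Cdk6, which encodes a kinase partner of the D-type cyclins, rose while its relatives did not pass. Its levels were -1.18, -1.004 and -1.05 on the bromate arrays, against -1.73, -2.47 and -2.37 on the water arrays, with water replicate 1 nearest to the bromate values. The difference was 1.11 ± 0.21 (2.17-fold, adjusted p = 0.0244), a second probe gave 0.83 ± 0.16, normexp gave 0.73, and the call held only without water replicate 1 when single arrays were left out (adjusted p up to 0.0842 otherwise). Cdk4, the other such kinase, had a difference of 0.04 ± 0.09 (adjusted p = 0.806) and Cdk2, the kinase of cyclin E, 0.11 ± 0.11 (adjusted p = 0.525).

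None of the D-type cyclins, which link growth signals to the cycle, passed. Ccnd1, for cyclin D1, had levels of 1.82, 2.80 and 2.90 on bromate replicates 1 to 3, against 2.68, 2.94 and 2.85 on the water arrays. Bromate replicate 1 was the lowest array, and the other Ccnd1 probes showed the same low array. The Ccnd1 difference was -0.31 ± 0.30 (adjusted p = 0.507), and 0.03 without bromate replicate 1. Ccnd3 was lower on every bromate array (-0.30 ± 0.10) without passing (adjusted p = 0.108), except with slide as a block (adjusted p = 0.0458) or with array weights (adjusted p = 0.0373). Ccnd2 had a difference of -0.03 ± 0.14 (adjusted p = 0.915).

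The MCM genes encode subunits of the helicase that is loaded at replication origins. On the probe that stood for each gene, all 5 measured subunits were higher on every bromate array than on any water array (19.5% of all genes were). Of the 5, 4 passed, against 6.59% of all genes that rose. Mcm3 had levels of 0.68, 1.27 and 1.11 on the bromate arrays, against -0.71, -0.29 and -0.49 on the water arrays (difference 1.52 ± 0.19, 2.86-fold, adjusted p = 0.00915). Its 3 other probes gave 1.28 ± 0.19, 1.34 ± 0.21 and 1.55 ± 0.25. The last of these was well above background on 3 arrays only. It read -4.01, -3.65 and -3.42 on the bromate arrays, against -4.93, -5.10 and -5.71 on the water arrays, and is not counted as support. Mcm4 had levels of 0.00, 0.43 and 0.28 on the bromate arrays, against -0.71, -0.71 and -0.70 on the water arrays (difference 0.95 ± 0.12, 1.93-fold, adjusted p = 0.0104). Both passed with each array removed in turn. Mcm2 and Mcm7 had smaller differences. Mcm2 had levels of -0.53, -0.17 and -0.40 on the bromate arrays, against -0.85, -0.89 and -0.83 on the water arrays (difference 0.49 ± 0.11, adjusted p = 0.0408). Mcm7 had levels of 1.74, 2.00 and 1.92 on the bromate arrays, against 1.46, 1.48 and 1.43 on the water arrays (difference 0.43 ± 0.10, adjusted p = 0.0377). With single arrays removed, both passed in 1 case, without bromate replicate 1 (highest adjusted p 0.123 for Mcm2 and 0.111 for Mcm7), and neither passed with the mean of its probes. The other Mcm2 probes gave 0.41 ± 0.15 and 0.57 ± 0.17 and the other Mcm7 probe 0.32 ± 0.13, and none of them passed. The groups overlapped on the first of these Mcm2 probes and on that Mcm7 probe. Mcm6 had levels of -2.89, -1.96 and -2.32 on the bromate arrays, against -3.55, -3.44 and -3.13 on the water arrays. Its difference of 0.98 ± 0.26 missed the threshold (adjusted p = 0.0553), and passed under 5 alternatives. These were normexp (0.58, adjusted p = 0.0461), all 6 arrays well above background (adjusted p = 0.045), a trended and robust variance (adjusted p = 0.0454), array weights (1.06, adjusted p = 0.0242) and leaving out bromate replicate 1 (1.23, adjusted p = 0.0284).

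Loading of the MCM ring needs the licensing factors CDT1 and CDC6. Cdt1 had levels of -3.86, -3.99 and -3.84 on the bromate arrays, against -5.15, -5.56 and -5.19 on the water arrays, where no array read it well above background. Set against the lowest water signal well above background, or its own where higher, it was 2.15-fold higher with bromate. This fold is not a firm bound, since with normexp background correction the fitted difference was 0.48 on the log2 scale, which is smaller. Its adjusted p was 0.00443 (limma), a call that supports nothing because Cdt1 entered through the bromate arrays. Without the filter on dim probes it was 0.0157. Cdc6 was well above background on 2 bromate and 2 water arrays, and its difference of 0.24 ± 0.23 did not pass (adjusted p = 0.514). Gins1, which encodes part of the working helicase, had levels of -1.85, -1.05 and -1.21 on the bromate arrays, against -2.14, -2.52 and -2.57 on the water arrays. The groups did not overlap, and the difference was 1.04 ± 0.24 (2.05-fold, adjusted p = 0.0417). With single arrays removed, Gins1 passed in 1 case, without bromate replicate 1 (highest adjusted p 0.125).

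None of the 3 genes for enzymes that make DNA building blocks passed. Rrm2, which encodes the regulated subunit of ribonucleotide reductase, had levels of 1.64, 3.59 and 3.13 on bromate replicates 1 to 3, against 1.17, 1.69 and 0.95 on the water arrays. Bromate replicates 2 and 3 were well above all water arrays, but bromate replicate 1 lay within their range. The Rrm2 difference was 1.52 ± 0.52 (adjusted p = 0.106), and 2.09 without bromate replicate 1 (adjusted p = 0.0222). Rrm1, the other subunit gene, had a difference of 0.14 ± 0.14 (adjusted p = 0.53). Tyms, which encodes thymidylate synthase, had levels of -0.88, -0.36 and -0.29 on the bromate arrays, against -0.52, -0.47 and -0.47 on the water arrays. Bromate replicate 1 was its lowest array and the others its highest, and the difference was -0.02 ± 0.17 (adjusted p = 0.936).

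Of the brakes, Cdkn2b rose and the others did not pass. Cdkn2b encodes p15, an INK4 inhibitor of CDK4 and CDK6. Its levels were -3.23, -3.58 and -3.26 on the bromate arrays, where it was well above background on all 3, and -6.77, -6.69 and -7.30 on the water arrays, where it was on none. Set against the lowest water signal well above background, Cdkn2b was 3.12-fold higher with bromate. This fold is not a firm bound, since with normexp background correction the fitted difference was 1.12 on the log2 scale, which is smaller. Its adjusted p was 0.00109 (limma), a call that supports nothing because Cdkn2b entered through the bromate arrays. Without the filter on dim probes it was 0.004. Its dimmer second probe was well above background on 1 array only and was not tested. Cdkn2a, which encodes the neighbouring inhibitor p16 and ARF, was well above background on 1 bromate and 2 water arrays and had a difference of -0.16 ± 0.32 (adjusted p = 0.756). Cdkn2c, which encodes the INK4 inhibitor p18, had levels of -1.91, -1.47 and -1.43 on the bromate arrays, against -1.29, -1.30 and -1.11 on the water arrays. All bromate values of Cdkn2c were lower, but the difference of -0.37 ± 0.15 did not pass (adjusted p = 0.158). Rb1, which encodes the retinoblastoma protein, was likewise lower on every bromate array (-0.31 ± 0.14, adjusted p = 0.181). Cdkn1b, which encodes p27, had levels of 1.37, 1.56 and 1.51 on the bromate arrays, against 1.41, 1.17 and 1.55 on the water arrays (0.10 ± 0.12, adjusted p = 0.613). Without Cdkn2b the brake mean was -1.25, -0.86 and -0.71 on the bromate arrays, against -0.87, -0.75 and -0.65 on the water arrays.

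**Figure D3:**
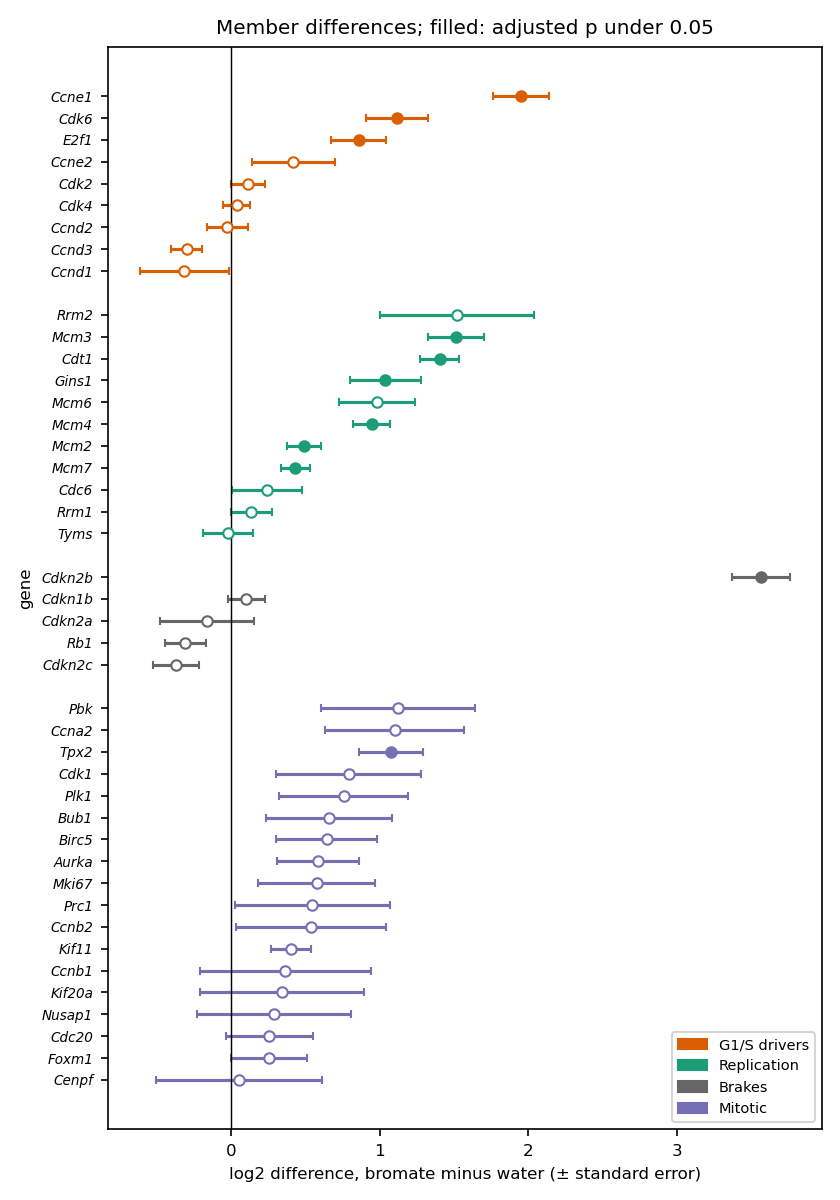
Log2 difference, bromate minus water, of each of the 43 measured members with its standard error (horizontal axis), by class, from limma on 3 against 3 arrays; filled points passed an adjusted p of 0.05. Filled points are Cdkn2b, 9 driver and replication genes and Tpx2, and mitotic genes have wide errors. The plotted values of Cdkn2b and Cdt1 are fitted from water arrays on which neither gene was well above background.

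In the mitotic class all 18 measured genes had a difference above 0, with a range of 0.05 to 1.12, and 1 passed. Tpx2, which encodes an activator of Aurora A on the spindle, had levels of -2.56, -1.90 and -1.89 on the bromate arrays, against -3.07, -3.10 and -3.41 on the water arrays. Tpx2 was thus higher on bromate replicate 1 too, and its difference of 1.08 ± 0.21 (2.11-fold) passed (adjusted p = 0.0288). With single arrays removed, Tpx2 passed in 1 case, without bromate replicate 1 (highest adjusted p 0.0912), and with normexp its difference was 0.60. Most other mitotic genes differed from Tpx2 on bromate replicate 1. Of the 18, only 2, Tpx2 and Kif11, were above all 3 water arrays on it, against 33.8% of all genes. Bromate replicates 2 and 3 were both above the other 4 arrays in 17 of the 18 mitotic genes, Tpx2 among them. The same held in 10 of the 11 replication genes and in 3 of the 9 drivers, against 9.32% of all genes. Replication genes thus shared this trait. These counts were made after the values had been seen.

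Mki67, the gene of the proliferation marker Ki-67, had log2 levels of -0.05, 1.34 and 1.31 on bromate replicates 1 to 3, against 0.48, 0.33 and 0.07 on the water arrays. Its 4 other probes repeated this pattern, with bromate replicate 1 below all water arrays on each of them but with differences of 0.44 to 0.69 that did not pass. Cdk1, which encodes the kinase of mitotic entry, had levels of 0.80, 2.53 and 2.31 on the bromate arrays, against 1.40, 1.23 and 0.64 on the water arrays. Bromate replicate 1 lay within the water range there. The differences were 0.58 ± 0.39 for Mki67 (adjusted p = 0.359) and 0.79 ± 0.49 for Cdk1 (adjusted p = 0.315).

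The cyclins that work with CDK1 and CDK2 after S phase has begun repeated the pattern. Ccna2, for cyclin A2, had levels of -1.16, 0.51 and 0.32 on the bromate arrays, against -0.96, -1.07 and -1.61 on the water arrays (difference 1.10 ± 0.47, adjusted p = 0.165). Ccnb1, for cyclin B1, had levels of -2.77, -0.75 and -1.12 on the bromate arrays, against -1.53, -1.67 and -2.53 on the water arrays (0.36 ± 0.57, adjusted p = 0.696). The Ccnb1 level of bromate replicate 1 was the lowest of all 6 arrays. Ccnb2, for cyclin B2, had levels of -3.04, -1.33 and -1.34 on the bromate arrays, against -2.08, -2.36 and -2.88 on the water arrays (0.54 ± 0.51, adjusted p = 0.505).

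Plk1, which encodes a kinase of spindle assembly, had levels of -0.49, 1.07 and 0.93 on the bromate arrays, against -0.03, -0.17 and -0.55 on the water arrays (0.76 ± 0.43, adjusted p = 0.281). Pbk, which encodes a mitotic kinase, had the highest difference of the class. Its levels were -3.35, -1.51 and -1.67 on the bromate arrays, against -3.06, -3.13 and -3.70 on the water arrays (1.12 ± 0.52, adjusted p = 0.194). Cenpf, which encodes a kinetochore protein, had the lowest difference, with levels of -4.88, -2.79 and -3.22 on the bromate arrays, against -3.28, -3.72 and -4.06 on the water arrays (0.05 ± 0.56, adjusted p = 0.961). Cenpf was well above background on 2 bromate arrays and all 3 water arrays. Aurkb, which encodes the kinase of the chromosomal passenger complex, read -5.54, -3.88 and -3.81 on the bromate arrays, against -4.53, -4.86 and -5.75 on the water arrays. It was well above background on bromate replicates 2 and 3 and on no other array, and was not tested. The remaining mitotic genes were Bub1 of the spindle checkpoint, the kinase gene Aurka, the passenger gene Birc5, the anaphase activator gene Cdc20, the motor gene Kif20a, the spindle genes Nusap1 and Prc1, and Foxm1, which encodes a transcription factor of mitotic genes. Their differences ran from 0.26 for Cdc20 and Foxm1 to 0.66 for Bub1, and none passed.

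Kif11, which encodes a motor that pushes spindle poles apart, was the mitotic gene in which bromate replicates 2 and 3 were not both highest. Its levels were 2.98, 2.66 and 2.61 on bromate replicates 1 to 3, against 2.33, 2.21 and 2.51 on the water arrays. Here bromate replicate 1 was the highest array, and a second Kif11 probe read 0.22, -0.24 and -0.26 on the bromate arrays, against -0.47, -0.72 and -0.34 on the water arrays. The groups did not overlap, but the difference of 0.40 ± 0.14 did not pass (adjusted p = 0.102).

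**Figure D4:**
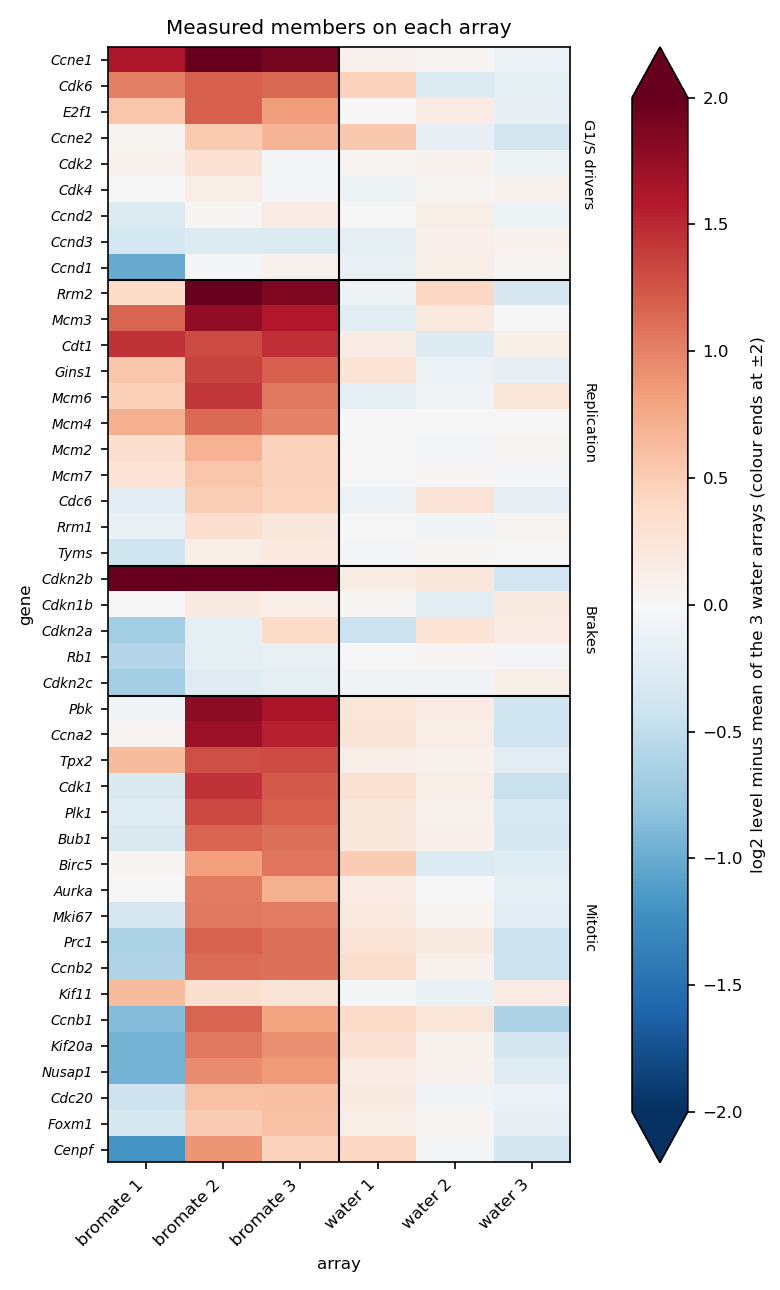
Log2 level of each of the 43 measured members minus its mean over the 3 water arrays (colour, ending at ±2), with bromate arrays left, water arrays right and classes separated by lines. Replication genes such as Mcm3, Mcm4 and Cdt1 are high on all 3 bromate arrays. Bromate replicates 2 and 3 are the highest arrays in 17 of 18 mitotic genes and in 10 of 11 replication genes. On the water arrays Cdkn2b and Cdt1 were not well above background.

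Bromate replicate 1 was set against the other bromate arrays gene by gene. The median mitotic gene was 0.31 below the water mean on bromate replicate 1 (median deviation -0.31) and 1.08 and 1.05 above it on bromate replicates 2 and 3. The median replication gene was 0.37, 1.14 and 0.99 above the water mean on bromate replicates 1, 2 and 3. Across all genes these medians were -0.01, -0.02 and -0.03. Bromate replicates 2 and 3 averaged more than 1 log2 unit above bromate replicate 1 in 13 of 18 mitotic genes, in 1 of 11 replication genes, which was Rrm2, and in 1 of 9 drivers, which was Ccnd1, against 2.59% of all genes. Among members, 14 were above all 3 water arrays on bromate replicate 1, of which 11 were driver or replication genes, 1 was Cdkn2b and 2 were the mitotic genes Tpx2 and Kif11 (33.8% of all genes were). In 18 members, 9 of them mitotic, bromate replicate 1 was below all 3 water arrays (35.8% of all genes were). Over all members both counts were close to these shares.

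**Figure D5:**
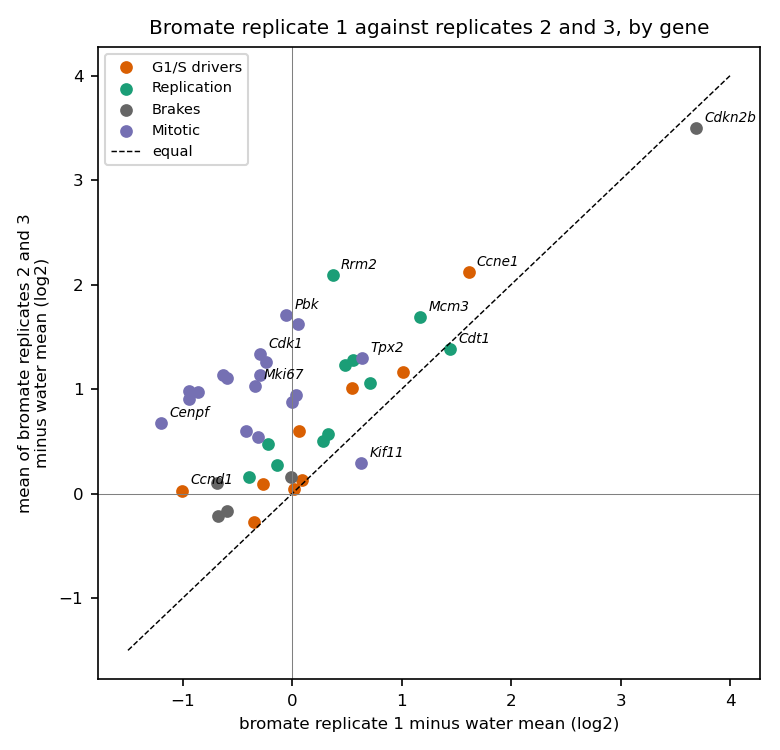
Each point is a measured member, placed by its log2 level on bromate replicate 1 minus the water mean (horizontal axis) and by the mean of bromate replicates 2 and 3 minus the water mean (vertical axis); the dashed line marks equal values. Cdt1 and Cdkn2b lie near the line, Mcm3 and Ccne1 lie above it with both values over 0, and most mitotic genes lie above it, at or left of 0.

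Without bromate replicate 1 the count of members that rose was 20, against 4.46% of all genes. Of these 10 were driver or replication genes, 9 were mitotic and 1 was Cdkn2b, and 10 of the 11 members called on all arrays were among them. The mitotic genes were Tpx2, Mki67 (1.03, adjusted p = 0.0255), Cdk1 (1.33, adjusted p = 0.0467), Ccna2 (1.63, adjusted p = 0.0242), Plk1 (1.26, adjusted p = 0.0266), Pbk (1.71, adjusted p = 0.0226), Bub1, Aurka and Nusap1. The count was 5 without water replicate 2 (2.01% of all genes rose), water replicate 3 (2.57%), bromate replicate 2 (2.23%) or bromate replicate 3 (2.9%). Without water replicate 1 it was 6 (5.28% of all genes rose), and Ccnd3 fell (6.42% of all genes fell). A slide block gave the same counts, since it takes water replicate 1 out. Without a filter on dim probes 5 members rose (1.5% of all genes), with array weights 14 rose (9.7% of all genes) and Ccnd3 fell (11.3% of all genes). Ccne1, Mcm3 and Mcm4 rose in every one of these fits. Cdt1 and Cdkn2b did too, but they entered through the bromate arrays and leave the test where all 6 arrays must be well above background.

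The means of the macrophage, fibroblast and lymphocyte markers were each lowest on bromate replicate 1. The mean log2 level of 10 measured macrophage markers (of 11) was 1.12, 1.97 and 1.81 on bromate replicates 1, 2 and 3, against 1.26, 1.34 and 1.43 on the water arrays, and that of 7 measured fibroblast markers (of 9) was 0.74, 1.75 and 1.80 on the bromate arrays, against 1.41, 1.67 and 1.53 on the water arrays. Both means were lowest on bromate replicate 1 and highest on bromate replicates 2 and 3. By gene, bromate replicates 2 and 3 were both above the other 4 arrays in 7 of 10 macrophage markers. The same held in 2 of 7 fibroblast markers, whose median difference was -0.20, and in 9.32% of all genes. Bromate replicate 1 was below all 3 water arrays in 3 macrophage, 6 fibroblast and 6 lymphocyte markers, against 35.8% of all genes. It was above all 3 in 2, 1 and 0 of them, against 33.8% of all genes. Of the macrophage markers C1qb rose and 0 fell (2 at an unadjusted p under 0.05), and 0 of the 7 fibroblast markers were called (1 at an unadjusted p under 0.05). Of all genes 6.59% rose and 32.7% had an unadjusted p under 0.05. Cd163 of macrophages and Lum and Postn of fibroblasts were too dim to enter. Lymphocyte markers, of which 6 of 12 were measured, with Cd3e, Cd2, Cd79b and Cd5 too dim, averaged -3.36, -2.97 and -2.56 on the bromate arrays, against -2.46, -2.42 and -2.52 on the water arrays, and 0 of the 6 were called (1 at an unadjusted p under 0.05). The injured tubule markers Havcr1, Lcn2, Spp1 and Clu averaged 3.87, 4.76 and 4.95 on bromate replicates 1, 2 and 3. On water replicates 1, 2 and 3 they averaged 0.05, -0.39 and -0.87. All 4 were above all 3 water arrays on bromate replicate 1, against 33.8% of all genes. Lcn2 was close to water there, at -1.14, against -1.60 on water replicate 1, its highest water array. It read 1.86 and 2.17 on bromate replicates 2 and 3 and did not pass (adjusted p = 0.0881, limma), whereas the other 3 markers rose. In 3 of the 4 markers bromate replicates 2 and 3 were both above the other 4 arrays, against 9.32% of all genes. Of other cortical cells, 5 of 8 proximal tubule markers and all 4 thick limb and distal tubule markers (median difference -1.99) fell. So did 2 of 6 measured endothelial markers, against 7.34% of all genes. Of 2 collecting duct and 2 podocyte markers, 0 were called. The proximal tubule mean was 6.26, 6.21 and 6.29 on the bromate arrays, against 6.87, 6.80 and 6.84 on the water arrays. The thick limb and distal mean was 3.13, 2.92 and 3.19 on the bromate arrays, against 4.94, 5.12 and 5.05 on the water arrays. The part of any of these cells in the values of the cycle genes was not tested.

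Further genes of the same pathway were taken from a list of 128, of which 101 were measured. Of 38 further replication genes 6 rose and 0 fell (19 at an unadjusted p under 0.05), against 6.59% of all genes that rose and 32.7% at an unadjusted p under 0.05, and their median difference was 0.35. Chaf1b, which encodes a subunit of the factor that places histones on new DNA, had levels of -0.74, 0.12 and -0.01 on the bromate arrays, against -1.36, -1.60 and -1.81 on the water arrays (difference 1.38 ± 0.25, 2.61-fold, adjusted p = 0.0233). Gmnn, which encodes geminin, the inhibitor of CDT1, had levels of -2.33, -1.98 and -2.11 on the bromate arrays, against -3.25, -2.97 and -2.97 on the water arrays (0.92 ± 0.13, adjusted p = 0.0132, and 0.58 with normexp). The helicase gene Gins4 was 0.58 ± 0.13 higher (adjusted p = 0.0391) and Dbf4, which encodes the activator of the origin-firing kinase CDC7, 0.56 ± 0.11 higher (adjusted p = 0.0289, and 0.23 higher with normexp, which did not pass). Pcna, for the sliding clamp, had levels of 2.01, 2.24 and 2.17 on the bromate arrays, against 1.76, 1.82 and 1.73 on the water arrays (0.37 ± 0.09, adjusted p = 0.0493). Of the 6, Gmnn kept its call on leaving out any 1 array, and the others lost it in 4 or 5 of 6 cases, and each of those 5 also lost it without the filter on dim probes. Of 8 further driver genes 2 rose, against 6.59% of all genes. They were Cks1b (0.66 ± 0.11), which encodes a CDK subunit, and the E2F partner gene Tfdp1 (0.39 ± 0.10). Cks1b lost its call on leaving out water replicate 2 or 3 or bromate replicate 2 or 3. Tfdp1 lost its call on leaving out any 1 of the 6 arrays.

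Of 37 further mitotic genes 3 rose and 0 fell (11 at an unadjusted p under 0.05), shares close to the 6.59% and 32.7% of all genes. Their median difference was 0.61, and in 29 of them bromate replicates 2 and 3 were both above the other 4 arrays, against 9.32% of all genes. Kif23, which encodes a motor of cytokinesis, had levels of -1.28, -1.24 and -1.25 on the bromate arrays, against -2.08, -2.14 and -2.13 on the water arrays, with hardly any spread in either group. Its difference was 0.86 ± 0.07 (1.82-fold, adjusted p = 0.00292) and held on leaving out any 1 array. Kif22, a chromosome motor gene, was 1.51 ± 0.22 higher (lost without bromate replicate 2, adjusted p = 0.0554) and the spindle checkpoint gene Mad2l1 0.90 ± 0.17 higher (kept only without bromate replicate 1 when single arrays were left out). All 3 were thus above the water arrays on bromate replicate 1, as Tpx2 was.

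The list of further brakes also held genes tied to p53 that are not brakes themselves, such as Mdm2. Of its 18 measured genes, 4 rose, Mdm2 among them, and 1 fell, against 6.59% of all genes that rose and 7.34% that fell. Btg2, an antiproliferative gene, had levels of 2.74, 2.10 and 1.80 on the bromate arrays, against 0.08, 0.05 and 0.57 on the water arrays (1.98 ± 0.27, 3.94-fold, adjusted p = 0.0122). Its highest level was on bromate replicate 1, the array with the lowest mitotic mean. Ccng1, for the p53-induced cyclin G1, was 0.96 ± 0.15 higher (adjusted p = 0.0151) and Mdm2, for the p53 ubiquitin ligase, 0.63 ± 0.08 higher (adjusted p = 0.0111). Cdkn1c, which encodes the inhibitor p57 of podocytes and other resting cells, had levels of 2.01, 1.58 and 1.59 on the bromate arrays, against 2.30, 2.77 and 2.48 on the water arrays (-0.79 ± 0.18, 1.73-fold lower, adjusted p = 0.0381). Calls were lost without water replicate 2 for Btg2 and Mdm2 (highest adjusted p 0.053), without bromate replicate 2 or bromate replicate 3 and with the mean of its probes for Ccng1, and without any of water replicates 2 and 3 and bromate replicates 2 and 3 for Cdkn1c. Cdkn1a, for p21, the main inhibitor downstream of p53, read differently by probe. The brightest probe had levels of 5.18, 4.76 and 4.96 on the bromate arrays, against 4.82, 5.28 and 5.11 on the water arrays (-0.10 ± 0.16, adjusted p = 0.699). A dimmer Cdkn1a probe had levels of 3.75, 3.42 and 3.01 on the bromate arrays, against 0.23, 0.70 and 1.14 on the water arrays (2.70 ± 0.28, adjusted p = 0.0054 over all probes), and the dimmest gave 1.86 ± 1.09. The probes of Cdkn1a thus differ on whether it rose.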

How the data were processed

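Total RNA of the renal cortex of 6 rats, 3 given bromate and 3 given water, was hybridised with Cy3 to Agilent arrays annotated on rn4, per the file headers. The deposited intensity values are processed signals that Feature Extraction 10.7 had background-subtracted, per the submitters' processing notes and the file headers, with its flags for dim, saturated and outlier spots. The deposited value table held, as a ratio, the processed signal over the array's 75th percentile, a scale found by comparison with the scanner values (array medians 0.103 to 0.105). Only brighter values were compared, and they lay within 0.328% of that ratio. Dimmer values, which included all those below the array medians, were not compared. No centring by gene was seen in the values compared. For each array log2 signals minus the 75th percentile were computed here, control and outlier spots were left out, and each gene symbol was represented by its brightest probe, well above background on 3 or more of the 6 arrays. Of 61537 probes 28206 had 1 symbol through RefSeq, and unnamed probes stood for themselves. limma 3.58.1 (R 4.3.3) compared bromate with water, with Benjamini-Hochberg adjustment over 29338 genes and a threshold of 0.05, and was tested on simulated data. Folds of Cdt1 and Cdkn2b set the bromate mean against the lowest water signal well above background, or the probe's own where higher. They are not firm bounds, since some probes above that lowest signal were not well above background.

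The members, classes, further genes and markers were chosen with earlier results of these data known. Named with all values are the called members, a fixed set of well-known genes and the highest and lowest difference of each class; of further genes, up to 4 called ones per list and Cdkn1a and Pcna. Alternatives covered scaling, background correction (normexp with offset 50, on median spot and background signals), filters, probe choice, variance model, slide, replicate number and leaving out each array.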

Additional observations from a re-analysis of the deposited data

How the results depend on the processing

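Of 43 members 11 rose in the fit reported. The count was 5 without a filter on dim probes (48975 genes tested), 6 with slide as a block, 5 with a replicate block and 5 to 20 on leaving out 1 array. It was 8 to 14 under the other alternatives, with 14 under array weights. Members that fell numbered 0 (limma), but 1, Ccnd3, under array weights and slide as a block (0 to 1 on leaving out 1 array). No other tool was run. Driver and replication genes that rose numbered 9 in the fit reported, 4 without a filter, 5 with slide as a block, 4 with a replicate block and 4 to 10 on leaving out 1 array. Mitotic genes that rose numbered 1 in the fit reported, 0 without a filter, with slide as a block and with a replicate block, 2 under array weights and 0 to 9 on leaving out 1 array. On leaving out 1 array the median difference of the members ran from 0.36 to 0.95 (0.95 without bromate replicate 1), that of driver and replication genes from 0.38 to 0.59, that of mitotic genes from 0.35 to 1.01, and the class balance from -0.24 to 0.20. Same-numbered arrays correlated at 0.054, 0.074 and -0.089 in their deviations from the group means, so no pairing by number was seen in the values. Whether animals were paired in handling cannot be told from this. The replicate block kept Ccne1, Mcm3, Mcm4, Cdt1 and Cdkn2b, against 1.97% of all genes that rose. Some uncalled genes changed sign. On leaving out 1 array Ccnb1 ran from -0.032 to 0.98, Ccnd1 from -0.51 to 0.0296, Ccnd2 from -0.12 to 0.10, Cdk4 from -0.011 to 0.0719, Cdkn1b from -0.0026 to 0.19, Cdkn2a from -0.43 to 0.10, Cenpf from -0.37 to 0.68, Kif20a from -0.015 to 0.98, Nusap1 from -0.043 to 0.90, Tyms from -0.13 to 0.16 and Cdkn1a from -0.23 to 0.000597. With normexp Cdc6 was -0.23, Cdkn2a 0.15 and Tyms 0.039. Array weights gave 0.018 for Ccnd2 and 0.05 for Tyms, a slide block -0.011 for Cdk4, and the mean of probes -0.073 for Foxm1 and 1.49 for Cdkn1a. The cause of these changes was not tested. Signals near background limit Cdc6, Cdkn2a, Cenpf, Cdt1 and Cdkn2b, which were not well above background on every array.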
